A study of Bos taurus with 18 samples.

Results

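A set of 9 genes of uterine Hedgehog signalling were followed in endometrial cells brushed from dairy cows. It held the ligand gene IHH, the receptor gene PTCH1, the signal transducer SMO, the transcription factor genes GLI1, GLI2 and GLI3, and the ligand trap HHIP. Its other 2 genes, NR2F2 and HAND2, encode transcription factors of the uterine stroma in the mouse. All 9 were taken by symbol, and each of the 9 symbols stood on a single row of a count table of 38001 gene rows. Of these 9 genes, 8 were among the 19638 genes with enough reads to be tested. HHIP was not, with 23 reads in all 18 libraries together.

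In Hedgehog signalling a secreted ligand binds PTCH1, which in its unbound state holds SMO inactive. Released SMO moves into the primary cilium and alters the processing of the GLI proteins, of which GLI1 and GLI2 mainly activate and GLI3 mainly represses target genes. PTCH1, HHIP and GLI1 are themselves targets and serve as readouts of the pathway. In the mouse uterus, progesterone acting on the epithelium raises IHH, the ligand reaches PTCH1 in the stroma below, and stromal NR2F2 (also called COUP-TFII) and HAND2 follow, HAND2 restraining fibroblast growth factor signals to the epithelium.

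The samples came from 6 Holstein cows, whose age is not given in the sources used here. Each cow was sampled on day 4 and day 7 after estrus of an untreated, Ovsynch-synchronized cycle, called the control cycle, and on day 7 of a later synchronized cycle in which a progestogen had been injected on day 4. Animals A, B and C received a depot of 100 mg 17α-hydroxyprogesterone caproate (17-OHPC), a long-acting ester, with 10 mg progesterone (P4). Animals D, E and F received 100 mg P4 alone. This gave 6 groups of 3 cows, and the letter marks the same cow in all its samples. No untreated second cycle was part of the design, so treatment and cycle cannot be told apart. A cytobrush turned in the uterine horn next to the corpus luteum collected the cells, mostly those of the surface.

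Libraries held 29347255 to 40733544 counts. Levels are given as CPM, counts scaled to library size after TMM normalization, and changes as log2 with the standard error (SE). Adjusted p-values are from edgeR's quasi-likelihood test with Benjamini-Hochberg adjustment over all 19638 genes, and a gene is said to have risen or fallen where that value was under 0.05. All 12 epithelial markers were detected in every library, with a sum of 2780 to 5860 CPM. Cells of other types were present in amounts that varied between cows: the sum of 15 stromal markers was 8310, 6440 and 4170 CPM in the 3 libraries of animal C and 177 to 4020 CPM in the other 15. No stromal marker was at 0 in all libraries, but TCF21 and POSTN were at 0 in some. Sums of 11 T and NK cell marker rows were 93.1 to 344 CPM, of 8 smooth muscle markers 43.9 to 574 CPM and of 8 endothelial markers 21.7 to 117 CPM. Those of 9 markers of ciliated cells were 55.1 to 1020 CPM.

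Between day 4 and day 7 of the control cycle, SMO fell. It was the only 1 of the 8 tested genes to pass the threshold over both arms, where 10.6% of all tested genes passed and 4.28% passed in the downward direction. GLI3 differed by a similar amount without passing, PTCH1 was higher on day 7 in each of the 3 cows of the 17-OHPC/P4 arm without passing, and IHH, GLI1, GLI2, NR2F2 and HAND2 did not pass. The main fit had 1 mean per group and no term for the cow. With the cow as a block, which pairs its samples, GLI3 and PTCH1 passed over both arms beside SMO. Their adjusted p-values were 0.0130, 0.0497 and 0.00414 (edgeR), where 16.7% of all genes passed. None of the 8 genes passed in any comparison of treated with control day 7 or between the arms. In the plot of levels by cow, SMO went down from control day 4 to control day 7 in all 6 cows, while NR2F2 went up in 2 and down in 4.

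**Figure D1:**
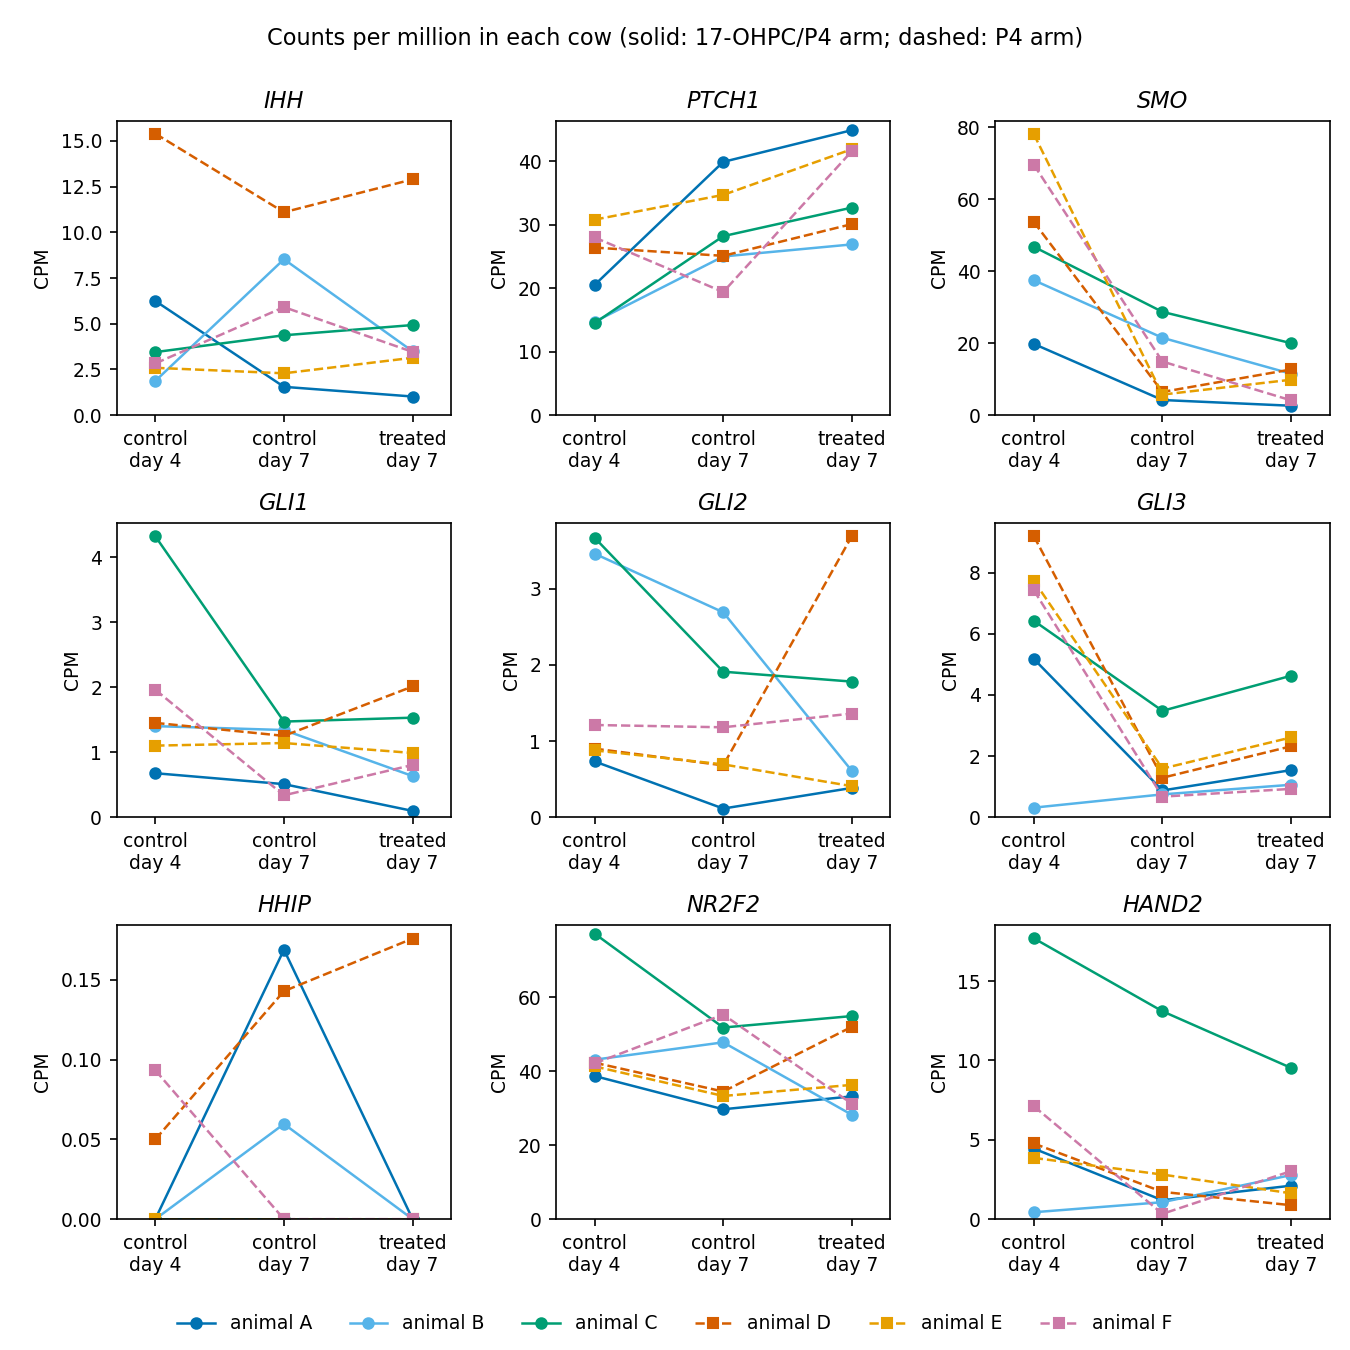
CPM (vertical axes, each from 0 and each with its own range) of the 9 genes in control day 4, control day 7 and treated day 7 samples; each line joins the 3 samples of a cow, solid with circles for animals A to C (17-OHPC/P4 arm) and dashed with squares for animals D to F (P4 arm). SMO was lower on control day 7 than on control day 4 in 6 of 6 cows, animal D stands above the others for IHH and animal C for HAND2.

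IHH, the ligand of the uterine epithelium, stood apart in 1 cow in all conditions. Animal D had 15.4 CPM on day 4 and 11.1 CPM on day 7 of the control cycle, and 12.9 CPM after treatment. The other 5 cows lay between 1.02 and 8.53 CPM in every sample, so that no sample of theirs reached the lowest of animal D. Within the 17-OHPC/P4 arm the day 4 and day 7 values of the control cycle were 6.25 and 1.55 CPM in animal A, 1.87 and 8.53 in animal B, and 3.45 and 4.37 in animal C. The cows thus went different ways, animal A down and animal B up. In the P4 arm animal E had 2.59 and 2.29 CPM and animal F 2.83 and 5.91 CPM on these days.

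Over both arms the log2 change of IHH from day 4 to day 7 was 0.10 ± 0.62 (SE), higher in 3 of 6 cows (edgeR, adjusted p = 0.939). Its 95% interval ran from -1.23 to 1.44, which leaves room for changes of more than 2-fold either way. On treated day 7 the 17-OHPC/P4 arm had 1.02, 3.49 and 4.93 CPM in animals A, B and C, and animals E and F had 3.14 and 3.46 CPM. Treated against control day 7 gave a log2 difference of -0.30 ± 0.62 over both arms, with 3 cows higher and 3 lower (adjusted p = 0.951).

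PTCH1 encodes the receptor and is itself induced by the pathway in many tissues. In the 17-OHPC/P4 arm it went from 20.5 to 39.9 CPM in animal A, from 14.7 to 25.0 CPM in animal B and from 14.5 to 28.2 CPM in animal C between day 4 and day 7. The 2 sets of libraries did not overlap, a pattern that 7.1% of all tested genes showed upward in this arm. The log2 difference was 0.90 ± 0.26 (SE), 1.87-fold, with an adjusted p of 0.225 (edgeR) and an unadjusted p of 0.00328. With the cow as a block the log2 difference was 0.89 ± 0.17 and the adjusted p 0.0494. In this arm 0.0407% of all genes passed without the block and 0.55% with it.

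The P4 arm started higher and showed no such difference. Its PTCH1 values on day 4 and day 7 were 26.4 and 25.1 CPM in animal D, 30.8 and 34.7 in animal E, and 28.0 and 19.4 in animal F. The log2 difference was -0.11 ± 0.26 (adjusted p = 0.844), with 1 cow higher and 2 lower; with CPM on plain library totals all 3 were lower, and without control day 7 of animal F the difference was 0.07. The day 4 to day 7 change of PTCH1 differed between the arms by 1.01 ± 0.36 (SE, 95% interval 0.24 to 1.78), with an unadjusted p of 0.0141 and an adjusted p of 0.558, in a comparison where 0% of all genes passed and 1514 had an unadjusted p under 0.05. Over both arms the change was 0.40 ± 0.18 (adjusted p = 0.172), and 0.38 ± 0.12 with the cow as a block (adjusted p = 0.0497). With that block 16.7% of all genes passed over both arms.

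On treated day 7 PTCH1 was above the same cow's control day 7 value in 6 of 6 cows. The treated values were 44.9, 26.9 and 32.7 CPM in animals A, B and C and 30.1, 41.9 and 41.6 CPM in animals D, E and F. The log2 differences per cow ran from 0.11 in animal B to 1.09 in animal F, and groups overlapped in both arms. Over both arms the difference was 0.34 ± 0.18 (SE, 95% interval -0.04 to 0.73), with an adjusted p of 0.896. Across all tested genes 2.35% were higher in all 6 cows in this comparison, and GLI3 was the other of the 8 genes to be so.

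SMO, the membrane protein that PTCH1 restrains and that carries the signal into the cell, had its highest levels on control day 4. Among cows of the P4 arm it went from 53.7 to 6.45 CPM in animal D, from 78.1 to 5.72 CPM in animal E and from 69.6 to 14.9 CPM in animal F. In the 17-OHPC/P4 arm it went from 19.8 to 4.21 CPM in animal A, from 37.5 to 21.5 CPM in animal B and from 46.8 to 28.7 CPM in animal C. The decrease was larger in every cow of the P4 arm than in animals B and C, while animal A had almost the same log2 change as animal F (-2.22 and -2.21). Libraries of the 2 days did not overlap in the P4 arm, as for 18% of all tested genes in the downward direction, and overlapped in the 17-OHPC/P4 arm.

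Over both arms SMO fell by 1.91 ± 0.51 on the log2 scale, 3.77-fold, with an adjusted p of 0.0283 (edgeR, lower in 6 of 6 cows). Of all tested genes, 9.02% were lower in all 6 cows, and GLI2 was the other of the 8 genes to be so, without passing. Within the P4 arm SMO fell by 2.89 ± 0.75 (SE), 7.42-fold, with an adjusted p of 0.0304, where 8.65% of all genes passed and 4% passed downward. In the 17-OHPC/P4 arm the log2 difference was -0.94 ± 0.70 (adjusted p = 0.748), lower in 3 of 3 cows. The 2 changes differed by 1.95 ± 1.0 (95% interval -0.18 to 4.09, adjusted p = 0.689), so a difference between the arms was not shown.

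Both calls for SMO were lost without certain single libraries. Over both arms the adjusted p rose above 0.05 when control day 7 of animal A, B, D or E or control day 4 of animal C, E or F was left out, with values from 0.0186 to 0.0802 over the 12 libraries compared; in the P4 arm it did so without control day 4 of animal D, E or F or control day 7 of animal D or E, with values from 0.0266 to 0.132. The decrease was called again over both arms without all libraries of animal C, at -2.02 ± 0.54 (adjusted p = 0.0447), and with the cow as a block, at -2.10 ± 0.36 (adjusted p = 0.00414). With the block 16.7% of all genes passed. In a bulk sample, fewer cells of a type that expresses SMO and less SMO RNA per cell cannot be told apart. The T and NK cell marker rows moved the same way: all 11 had a negative log2 change over both arms, with a median of -0.80 against -0.05 over all genes, and 2 fell (IL2RB and CD3E). Those calls were lost in 3 and 7 of 12 fits without a library, and that of CD3E also without a filter, with only the groups compared and without animal C (up to 0.103). The median of the 11 was -1.29 in the P4 arm and -0.22 in the 17-OHPC/P4 arm, where 2 of the 11 were positive. The T and NK cell sum went from 116 to 122 CPM in animal A, where SMO was lower on day 7, and down in each of the other cows. Of 9 macrophage and neutrophil markers, with sums of 17.4 to 436 CPM, 8 had a positive change over both arms, and 0 passed. Their median was 1.07 over both arms, 1.72 in the P4 arm and 0.29 in the 17-OHPC/P4 arm. Over both arms 7 of 9 ciliated (median -0.44) and 7 of 8 smooth muscle markers (-0.45) were also negative. So were 10 of 15 stromal (-0.23) and 8 of 12 epithelial markers (-0.07), while endothelial markers were 4 positive and 4 negative. None of these passed. In the P4 arm the ciliated and smooth muscle medians were 0.17 and 0.03. The part of any of these cell types in the change of SMO was not tested.

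No difference in SMO between treated and control day 7 was detected. Animals A, B and C had 2.62, 11.5 and 20 CPM, each under its own control day 7 value. Animals D and E had 12.7 and 9.85 CPM, above control day 7, and animal F had 4.11 CPM, below it. The log2 difference was -0.67 ± 0.70 with 17-OHPC/P4 (adjusted p = 0.99) and -0.03 ± 0.70 with P4 alone (adjusted p = 1). Ordered by mean, the SMO groups ran from P4 arm control day 4 (67.1 ± 12.4 CPM, SD, n = 3) to 17-OHPC/P4 arm control day 4 (34.7 ± 13.7), then control day 7 of that arm (18.1 ± 12.6), its treated day 7 (11.4 ± 8.70), and control (9.04 ± 5.13) and treated day 7 (8.87 ± 4.36) of the P4 arm. Every neighbouring pair in this order overlapped in its libraries except the first, which did not pass the test.

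Of a list of 10 other Hedgehog reception genes 4 changed over both arms between day 4 and day 7 of the control cycle, 3 down and 1 up, beside the 10.6% of all genes given above. EVC and EVC2, ciliary proteins that bind SMO and pass its signal on, fell by 1.96 ± 0.47 (adjusted p = 0.0186) and 1.24 ± 0.30 (adjusted p = 0.0193), each lower in 5 of 6 cows. GPR161, a ciliary receptor that keeps the pathway off, fell by 1.08 ± 0.30 (adjusted p = 0.0337, 6 of 6 cows). BOC, a co-receptor that presents ligand to PTCH1, rose by 1.06 ± 0.31 (adjusted p = 0.040, 6 of 6 cows). The median of the list was -0.13, against -0.05 over all tested genes. GAS1 and CDON, which also help to present ligand, were among the genes of the list that did not pass.

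The decreases varied in size between cows. Across the P4 arm EVC went from 68.0, 75.3 and 60.7 CPM in animals D, E and F to 6.12, 8.97 and 6.77 CPM, and EVC2 from 75.6, 72.7 and 67.4 CPM to 13.3, 16.9 and 18.9 CPM. In the 17-OHPC/P4 arm animal A went from 33.5 to 8.05 CPM for EVC and from 31.9 to 9.85 CPM for EVC2, while animal C was higher on day 7, at 24.3 against 19.8 CPM for EVC and 27.8 against 21.1 CPM for EVC2. GPR161 was at 9.40, 10.5 and 13.2 CPM on day 4 and 1.36, 2.77 and 5.26 CPM on day 7 in animals D, E and F. Within the P4 arm alone EVC (-3.22 ± 0.70, adjusted p = 0.0158), EVC2 (-2.13 ± 0.44, 0.0125) and GPR161 (-1.81 ± 0.43, 0.0217) fell, and so did SCUBE3, which helps to release the ligand (-2.31 ± 0.57, adjusted p = 0.0253). All 4 calls were lost without control day 7 of animal D. That of EVC was also lost without control day 4 of animal E, that of GPR161 without control day 4 of animal E or F or control day 7 of animal E, and that of SCUBE3 without these or control day 7 of animal F, with adjusted p-values of up to 0.108. None of these genes passed within the 17-OHPC/P4 arm, and the difference between the arms was not called for any of them.

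BOC went from 39.7, 37.3 and 19.2 CPM to 87.4, 55.4 and 42.1 CPM in animals A, B and C, and from 51.0, 22.2 and 26.9 CPM to 77.0, 98.4 and 52.4 CPM in animals D, E and F. Its call was lost without control day 7 of animal A, B, D or E, without control day 4 of animal B, C, E or F (adjusted p of up to 0.119), and without all libraries of animal C (adjusted p = 0.066). The call for GPR161 was lost without the same libraries (up to 0.0887), without animal C (adjusted p = 0.0676), without a low-count filter (0.0586) and with only the groups compared (0.0798, and 0.0722 in the P4 arm). EVC lost its call without control day 7 of animal A, B or D, and EVC2 without control day 7 of animal D, with adjusted p-values of up to 0.0622.

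**Figure D2:**
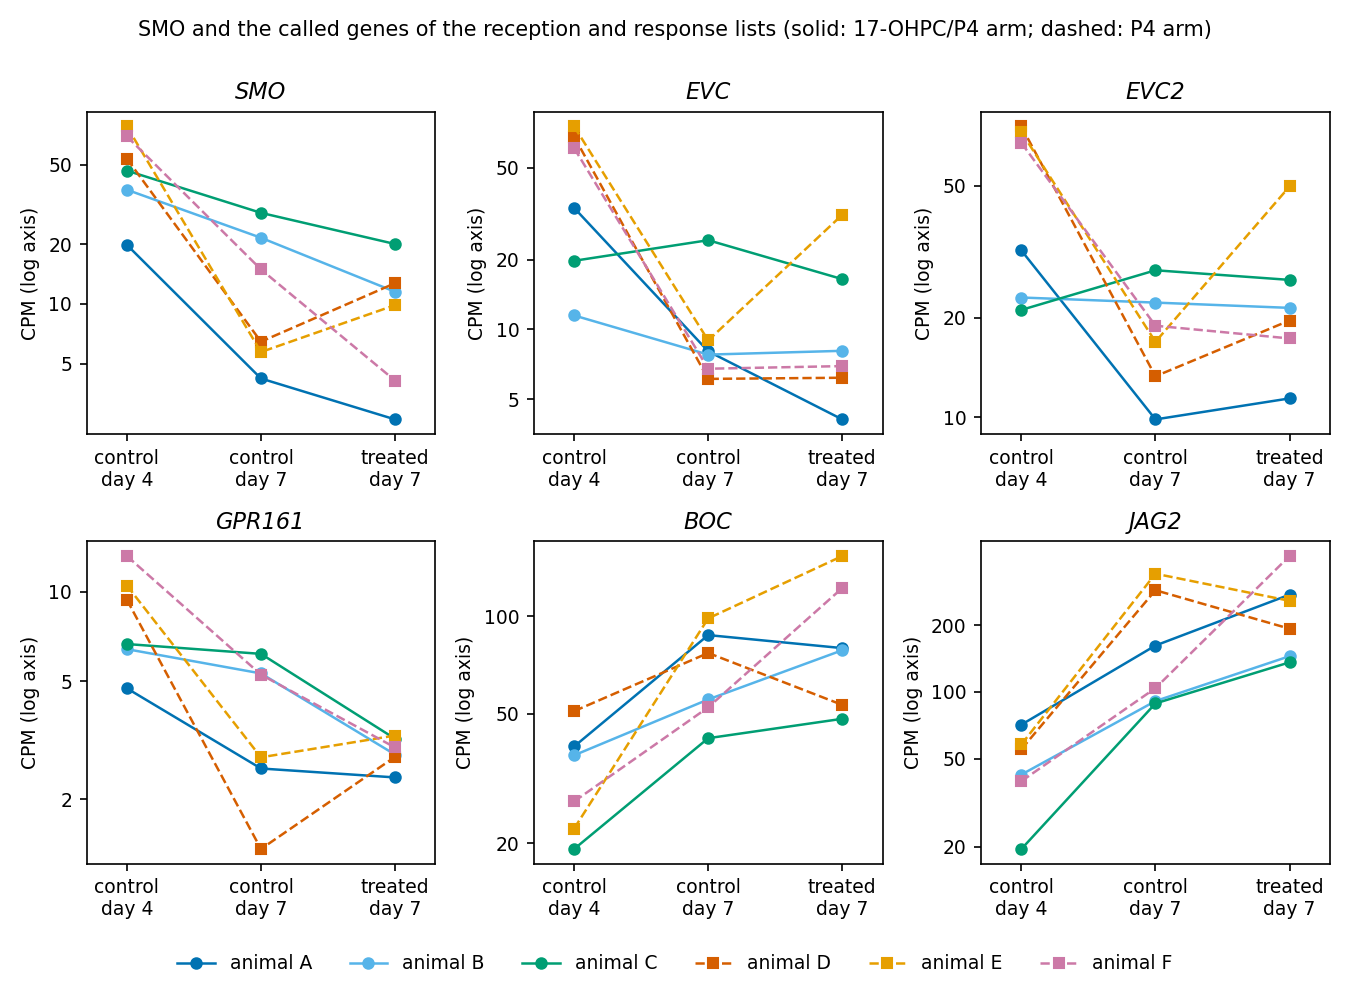
CPM on log axes of SMO, of the reception genes EVC, EVC2, GPR161 and BOC and of JAG2 in control day 4, control day 7 and treated day 7 samples; each line joins the 3 samples of a cow, solid with circles for the 17-OHPC/P4 arm and dashed with squares for the P4 arm. From control day 4 to control day 7 the lines of SMO and GPR161 go down and those of BOC and JAG2 go up in all 6 cows, while EVC and EVC2 go up in animal C.

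GLI3, the main repressor among the GLI factors, was also highest on control day 4 in 5 of 6 cows. In the P4 arm it went from 9.20, 7.74 and 7.43 CPM on day 4 to 1.29, 1.59 and 0.672 CPM on day 7 in animals D, E and F. In the 17-OHPC/P4 arm animals A and C went from 5.18 to 0.875 CPM and from 6.43 to 3.48 CPM, whereas animal B had 0.311 CPM on day 4 and 0.746 CPM on day 7. The 2 days were apart in the P4 arm and overlapped in the other arm.

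The log2 change of GLI3 was -2.0 ± 0.63 over both arms (adjusted p = 0.055, lower in 5 of 6 cows) and -2.78 ± 0.91 in the P4 arm (adjusted p = 0.0699). With the cow as a block both passed, at -1.96 ± 0.43 (adjusted p = 0.0130) and -2.89 ± 0.61 (adjusted p = 0.0122), where 16.7% and 15.1% of all genes passed. DESeq2 called both as well (adjusted p = 0.00890 and 0.0110). Without control day 4 of animal B the value over both arms was -2.27 (adjusted p = 0.0161), and GLI3 also passed without control day 7 of animal C (0.0246) and without all of animal C (0.0443). On treated day 7 the values were 1.54, 1.06 and 4.63 CPM in animals A, B and C and 2.32, 2.61 and 0.926 CPM in animals D, E and F. Each was above the control day 7 value of its cow, by 0.40 to 0.82 on the log2 scale, and the difference of 0.61 ± 0.61 did not pass (adjusted p = 0.906).

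GLI1, the GLI factor that is itself a target, was counted with few reads, from 3 in animal A on treated day 7 to 174 in animal C on control day 4. On control day 4 it stood at 0.676, 1.40 and 4.32 CPM in animals A, B and C and 1.45, 1.10 and 1.96 CPM in animals D, E and F. On control day 7 it stood at 0.508, 1.34 and 1.47 CPM and 1.25, 1.14 and 0.336 CPM. The largest decreases were those of animals C and F, and animals B and E were nearly level. The log2 change was -0.83 ± 0.59 (adjusted p = 0.401, lower in 5 of 6 cows, and in 6 on plain library totals).

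GLI2, the main activator, was lower on day 7 in 6 of 6 cows by amounts that ranged from -0.04 in animal F to -2.22 in animal A on the log2 scale. It went from 0.732, 3.46 and 3.67 CPM to 0.113, 2.69 and 1.91 CPM in animals A, B and C, and from 0.900, 0.877 and 1.21 CPM to 0.680, 0.693 and 1.18 CPM in animals D, E and F. The log2 change was -0.48 ± 0.66 (adjusted p = 0.695). On treated day 7 animal D reached 3.69 CPM and the other 5 cows 0.384 to 1.78 CPM, while GLI1 lay between 0.096 and 2.01 CPM, so neither gene showed a common direction.

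HHIP, which binds and holds back the ligands and is a target of the pathway, was at the limit of detection. It had no reads in 12 of 18 libraries and 2 to 6 reads in the other 6, which were animals D and F on control day 4, animals A, B and D on control day 7 and animal D on treated day 7. A library with no reads still allows up to 3 counts, 0.0658 to 0.104 CPM in these 12 libraries. The limit would be higher where a read pair counted as 2. All 3 libraries of animal D held reads, 11 in total, and the highest level was 0.176 CPM in its treated day 7 sample. No fold is given, since both sides lay at or near this limit.

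NR2F2, a nuclear receptor of the uterine stroma in the mouse, had similar group means in all conditions, with single cows moving in different directions. On control day 4 it was at 38.7, 43.1 and 77.2 CPM in animals A, B and C and at 42.3, 41.3 and 42.1 CPM in animals D, E and F. On control day 7 it was at 29.7, 47.8 and 51.8 CPM and at 34.5, 33.3 and 55.3 CPM. Animal C was the highest cow on control day 4 and treated day 7 and animal F on control day 7. That library of animal F had the lowest stromal marker sum of all, 177 CPM. The log2 change was -0.16 ± 0.23 (95% interval -0.65 to 0.32, adjusted p = 0.699), 2 cows higher and 4 lower.

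Treated day 7 gave NR2F2 values of 33.2, 28.2 and 54.9 CPM in animals A, B and C and 52.0, 36.3 and 31.2 CPM in animals D, E and F. The difference from control day 7 was -0.10 ± 0.23 over both arms (95% interval -0.59 to 0.39, adjusted p = 0.957). All 6 groups overlapped in their range, with means from 38.7 ± 14.2 CPM (SD, n = 3) on treated day 7 to 53.0 ± 21.1 CPM on control day 4, both in the 17-OHPC/P4 arm.

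HAND2, the stromal factor downstream of progesterone and Hedgehog signals, likewise stood apart in 1 cow. Animal C had 17.7 CPM on day 4 and 13.1 CPM on day 7 of the control cycle, and 9.53 CPM after treatment. No other library was above 7.12 CPM. The 3 libraries of animal C were also those with the highest stromal marker sums, whose part in its HAND2 level was not tested. The lowest values were 0.336 CPM in animal F on control day 7, where the stromal marker sum was lowest, and 0.436 CPM in animal B on control day 4.

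Within the P4 arm HAND2 was at 4.77, 3.86 and 7.12 CPM on day 4 and at 1.72, 2.81 and 0.336 CPM on day 7 in animals D, E and F, without overlap. The log2 difference was -1.70 ± 1.18 (adjusted p = 0.395). In the 17-OHPC/P4 arm animals A and B had 4.45 and 0.436 CPM on day 4 and 1.19 and 1.07 CPM on day 7, and the log2 difference was -0.55 ± 1.14 (adjusted p = 0.917). In this fit without a term for the cow, the value was 1.07 without the control day 4 library of animal C. It was -2.74 without the control day 7 library of that cow. Within cows the log2 changes were -1.86 in animal A, 1.2 in animal B and -0.43 in animal C. Treated against control day 7 gave 0.05 ± 0.81 over both arms (95% interval -1.68 to 1.78, adjusted p = 0.994), with 3 cows higher and 3 lower. The interval is wide enough to hold a 2-fold difference either way. SMO, GLI3 and HAND2 were the 3 genes of the set without overlap between the days in the P4 arm, each lower on day 7, as were 18% of all tested genes.

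**Figure D3:**
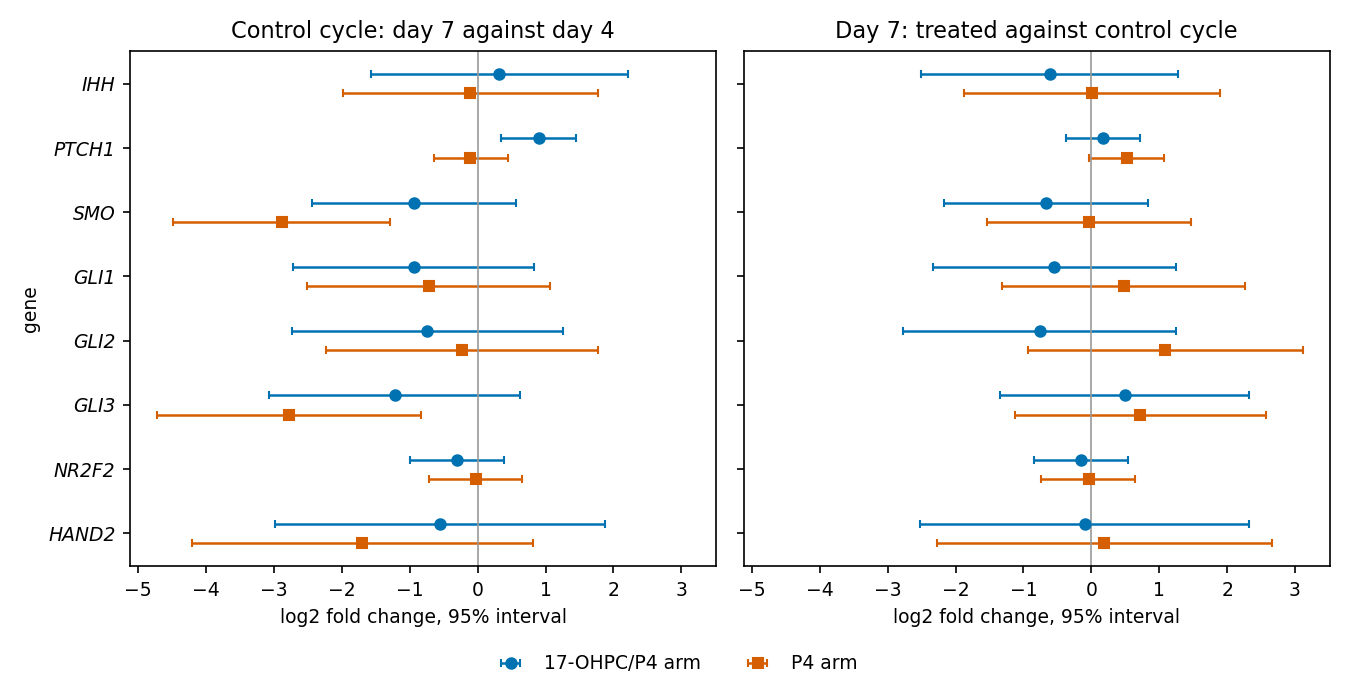
Log2 fold changes with 95% intervals from the edgeR fit for the 8 tested genes, for control day 7 against control day 4 (left) and treated against control day 7 (right), with circles for the 17-OHPC/P4 arm and squares for the P4 arm. On the left the intervals of SMO and GLI3 in the P4 arm and of PTCH1 in the 17-OHPC/P4 arm do not cross 0, and on the right all intervals cross 0.

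The treatment comparisons ask whether a progestogen given on day 4 moves the endometrium by day 7. For the Hedgehog genes no change was detected at this number of cows. In treated against control day 7, edgeR called 0 of the 8 genes over both arms or within either arm, with 0 of them at an unadjusted p under 0.05, and DESeq2 and limma voom called 0 as well. The background was the same, with 0% of all genes called in each of these 3 comparisons, while 850, 371 and 596 of the 19638 genes had an unadjusted p under 0.05. The smallest p from edgeR was that of PTCH1 in the P4 arm, where the log2 difference was 0.52 ± 0.26 (unadjusted p = 0.0617, adjusted p = 1). Of 97 tested genes in 8 pathway lists, 0 were called in any of the 3 comparisons by edgeR, DESeq2 or limma voom, and 5, 2 and 2 had an unadjusted p under 0.05.

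The response of the 8 genes to the 2 treatments could not be told apart either. The formulations differ in dose and make-up: 17-OHPC is an esterified relative of progesterone and was given with a small dose of P4, against P4 alone. The difference between the arms in the treatment response was -0.35 ± 0.36 for PTCH1 (95% interval -1.12 to 0.42), -0.64 ± 0.99 for SMO (-2.77 to 1.48), -0.62 ± 1.25 for IHH (-3.29 to 2.04) and -0.11 ± 0.46 for NR2F2 (-1.09 to 0.87). It was -1.85 ± 1.33 for GLI2 (-4.70 to 1.0) and -1.02 ± 1.18 for GLI1 (-3.55 to 1.5). No gene of the 8 and 0% of all genes passed (edgeR), with 0 of the 8 and 247 of all genes under an unadjusted p of 0.05 and 0 of the 8 called by DESeq2 or limma voom. Each of these intervals, from the fit without a term for the cow, holds a difference of more than 2-fold. With the cow as a block 0 of the 8 genes and 0% of all genes passed, and intervals from that fit are not given here. A p that misses the threshold does not show that the treatments act alike.

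On treated day 7 itself, the arms differed by -0.12 ± 0.26 for PTCH1 (95% interval -0.66 to 0.43), 0.36 ± 0.70 for SMO (-1.14 to 1.86), 0.30 ± 0.86 for GLI3 (-1.53 to 2.13), -1.04 ± 0.89 for IHH (-2.95 to 0.87) and -0.04 ± 0.32 for NR2F2 (-0.73 to 0.65). HAND2 differed by 1.38 ± 1.16 (-1.11 to 3.87). All libraries overlapped between the arms, and edgeR, DESeq2 and limma voom called 0 of the 8 genes, 0 being under an unadjusted p of 0.05, where edgeR called 0.0102% of all genes.

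The arms were also compared before treatment. On control day 4, PTCH1, SMO and GLI3 were lower in every cow of the 17-OHPC/P4 arm than in every cow of the P4 arm, as were 15.5% of all tested genes. PTCH1 was 14.5 to 20.5 CPM against 26.4 to 30.8 CPM, a log2 difference of -0.78 ± 0.26 with an adjusted p of 0.102 (edgeR). SMO was 19.8 to 46.8 CPM against 53.7 to 78.1 CPM, -0.95 ± 0.70 (adjusted p = 0.441). GLI3 was 0.311 to 6.43 CPM against 7.43 to 9.20 CPM, -1.03 ± 0.86 (adjusted p = 0.498). None of the 8 passed, by edgeR, DESeq2 or limma voom, and 1 had an unadjusted p under 0.05, where 2.76% of all genes passed. Those calls, 256 higher and 286 lower, were 5 and 4 without animal C and 0 and 0 with only the 2 groups fitted.

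On control day 7 the arms overlapped for all 8 genes. PTCH1 differed by 0.23 ± 0.26 and SMO by 1.0 ± 0.71 (adjusted p = 0.787 and 0.638), 0 of the 8 were called by edgeR, DESeq2 or limma voom or had an unadjusted p under 0.05, and edgeR called 0.00509% of all genes. The control day 4 samples are also the start of the day 4 to day 7 comparison, so the 2 results share them. The fitted difference between the arms on control day 4 was positive for 15 of 15 stromal markers, with a median of 1.30 and 0 passing, and rested on animal C: the stromal sums were 667, 356 and 8310 CPM in animals A, B and C and 1300 to 2380 CPM in the P4 arm. Ciliated markers were positive for 9 of 9 (median 1.9) and smooth muscle markers for 6 of 8 (median 2.47). Endothelial markers were negative for 7 of 8 (median -0.41) and T and NK cell rows for 9 of 11 (median -0.36). The medians were -0.04 for epithelial and -0.05 for macrophage and neutrophil markers. None of these markers passed. The part of these cell types was not tested.

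In the other pathway lists, counts for day 7 against day 4 over both arms stand beside the 10.6% of all genes that passed. Of ligand and release genes 0 of 8 passed, among them SHH, DHH and DISP1, and 0 of 12 tested GLI regulators, among them SUFU (0.08 ± 0.15, adjusted p = 0.79), the cytoplasmic brake on GLI. Of 12 tested Hedgehog-responsive genes 1 rose, JAG2, a Notch ligand. It went from 19.5 to 71.1 CPM on day 4 to 88.7 to 342 CPM on day 7, a log2 change of 1.81 ± 0.36 (adjusted p = 0.00739, higher in 6 of 6 cows), and passed in each of 12 fits without a library. BCL2, CCND1, FOXF1 and HSD11B2 of that list did not pass, and its median was -0.46.

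Of 17 genes of the uterine progesterone axis 2 fell, the progesterone receptor gene PGR (-1.05 ± 0.26, adjusted p = 0.0209) and the estrogen receptor gene ESR1 (-0.79 ± 0.22, adjusted p = 0.032). PGR lost its call without control day 7 of animal A, B or E, and ESR1 without control day 7 of animal A, D or E, without control day 4 of animal C, D, E or F, without all of animal C, and with only the groups compared (0.0611), with adjusted p-values of up to 0.0936. GATA2, a partner of the receptor upstream of IHH in mouse, had a log2 change of 1.33 ± 0.41 (adjusted p = 0.0538, higher in 6 of 6 cows). Of 14 tested fibroblast growth factor genes 1 rose, the feedback inhibitor SPRY1 (0.77 ± 0.16, adjusted p = 0.0104, 5 of 6 cows). No relative or partner of NR2F2 and HAND2 (10 tested) and no gene of ciliary transport (14 tested) passed over both arms, with medians of -0.25 and -0.47 against -0.05 over all genes. Over the 97 genes of the 8 lists, edgeR called 8, a share near that of all genes, and 15 with the cow as a block, where 16.7% of all genes passed.

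Within the P4 arm 9 of these 97 genes passed, where 8.65% of all genes passed, and 14 with the cow as a block, where 15.1% of all genes passed. These shares are near the background. Besides EVC, EVC2, GPR161 and SCUBE3, the receptor gene FGFR2 (-1.40 ± 0.34, adjusted p = 0.0225) and the cytokine gene IL15 (-2.0 ± 0.59, adjusted p = 0.0492) fell, and JAG2 (2.27 ± 0.51, adjusted p = 0.0181), SPRY1 (1.04 ± 0.23, adjusted p = 0.0172) and the ciliary transport gene IFT20 (0.89 ± 0.26, adjusted p = 0.0478) rose. The calls of IL15 and IFT20 were lost in 6 of 6 fits without a library of this arm and without a filter, and that of IL15 also with DESeq2's size factors (0.0512) and that of IFT20 without animal C (0.0616), with adjusted p-values of up to 0.19. Those of FGFR2, JAG2 and SPRY1 were lost without control day 7 of animal D or control day 4 of animal E or F, those of JAG2 and SPRY1 also without control day 4 of animal D, and that of JAG2 also without control day 7 of animal E (up to 0.13). Within the 17-OHPC/P4 arm edgeR called 0 of the 97 and 0 of the 8, with 5 and 1 under an unadjusted p of 0.05, and DESeq2 and limma voom called 0 of either. On control day 4, FGFR2 was lower in the 17-OHPC/P4 arm (-1.69 ± 0.34, adjusted p = 0.0296), the only 1 of the 97 to differ between the arms there by edgeR, against 7 by DESeq2 and 4 by limma voom. This call was lost without control day 4 of animal A, B, E or F (adjusted p of up to 0.117) without animal C (0.0776) and with only the groups compared (0.0791).

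Across the 18 libraries some of the 9 genes varied together. These correlations are of log2 CPM over 18 libraries from 6 cows, which share cows, days and depth, and are given as descriptions. GLI3 and HAND2 had a Pearson r of 0.78 and a Spearman rho of 0.78, and r was 0.74 without the 2 libraries farthest from the median of GLI3. NR2F2 went with GLI2 (r = 0.75, rho = 0.79). PTCH1 went against SMO (r = -0.59, rho = -0.56), while PTCH1 and HAND2 were unrelated (r = 0.03).

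Set beside cell markers, HAND2 went with the means of the stromal (r = 0.77, rho = 0.67, r = 0.63 without 2 libraries) and endothelial markers (r = 0.75, rho = 0.66). GLI1 went with smooth muscle (r = 0.78, rho = 0.85) and stromal markers (r = 0.69, rho = 0.79). SMO went with T and NK cell markers (r = 0.76, rho = 0.76, r = 0.73 without 2 libraries). It also went with epithelial markers (r = 0.74, rho = 0.69, r = 0.60 without 2 libraries). PTCH1 went against ciliated markers (r = -0.69, rho = -0.62, r = -0.54 without 2 libraries). With ciliated markers r was 0.59 for GLI2 and 0.49 for NR2F2, and 0.65 and 0.63 without 2 libraries. For SMO and stromal markers r was 0.42 and rho 0.45. For NR2F2 and stromal markers r was 0.58 and rho 0.47, with r = 0.35 without 2 libraries. In the plot against marker sums the 3 libraries of animal C have the largest stromal sums, and their SMO values lie among those of the other libraries.

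**Figure D4:**
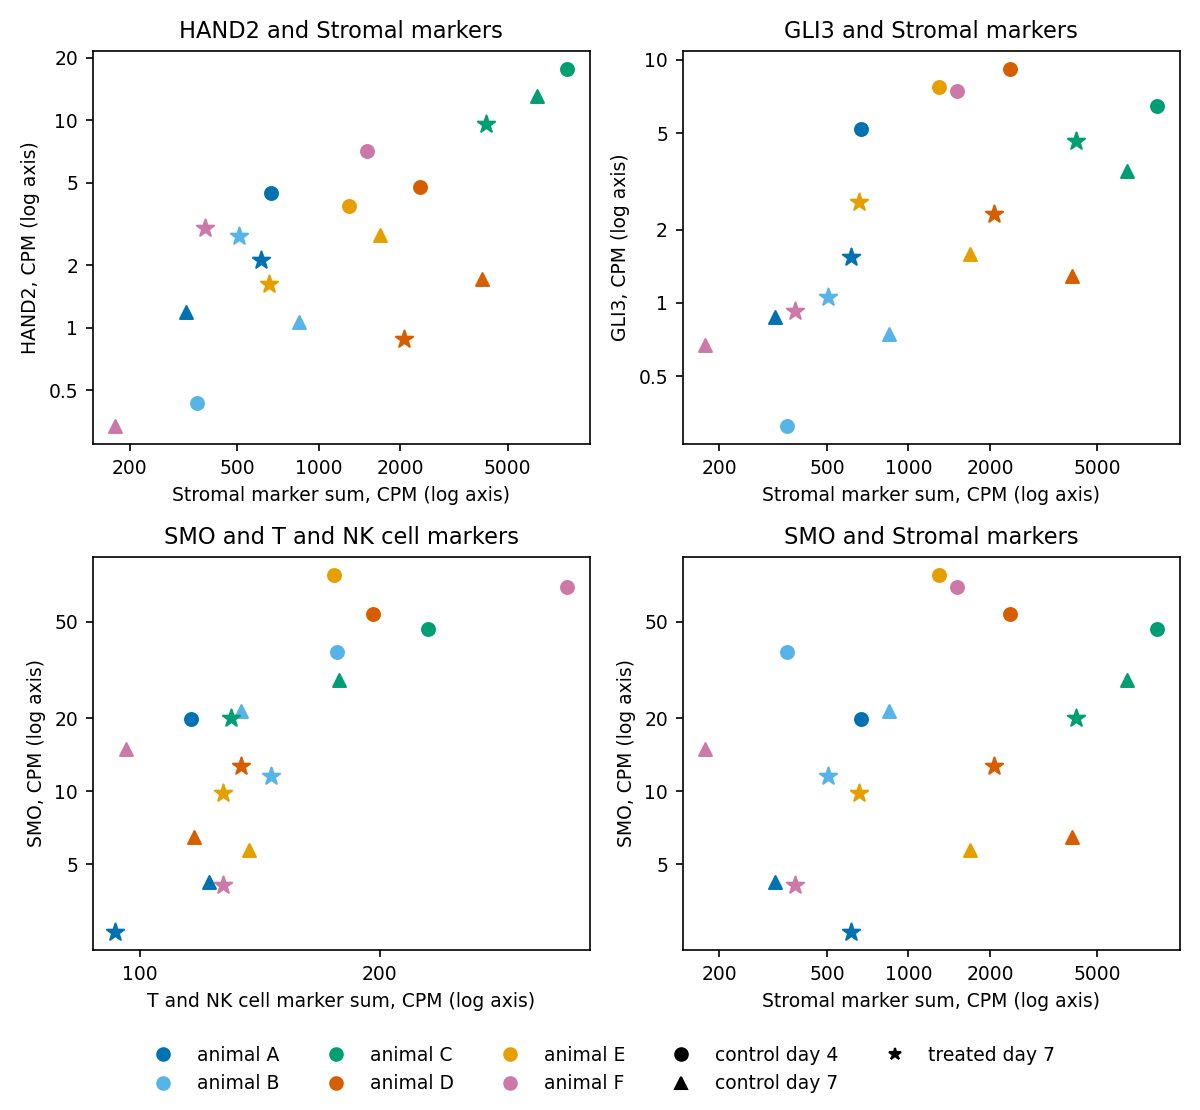
CPM of HAND2, GLI3 and SMO (vertical, log axes) against the summed CPM of stromal or T and NK cell markers (horizontal, log axes) in the 18 libraries; colours mark the cow, and circles, triangles and stars mark control day 4, control day 7 and treated day 7. HAND2 is highest in the 3 libraries of animal C, which have stromal sums of 8310, 6440 and 4170 CPM, and SMO is highest in the control day 4 libraries of animals D, E and F (53.7, 78.1 and 69.6 CPM).

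Among 13292 named genes with a mean of at least 1 CPM, those most like HAND2 over the 18 libraries by Pearson correlation of log2(CPM + 1) were NPR3, TMEM132C and DKK3 (r = 0.94 each). Those most like PTCH1 were TANC2 (0.92), CXADR (0.91) and ZBTB40 (0.91), and those most like NR2F2 were ENOSF1 (0.89), WWTR1 (0.88) and SARDH (0.88). IHH had looser neighbours, RGS11 (0.84), PRSS16 (0.77) and CPN1 (0.76), and the first fell to 0.72 without 2 libraries. For SMO, a gene added here after its values were seen, the closest were SEMA4F (0.96), TET1 (0.96) and NLN (0.95), which kept 0.94 each without 2 libraries.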

How the data were processed

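Poly(A) RNA of 18 brush samples, 3 from each of 6 cows, was sequenced as paired reads. Per the submitters' processing notes, the authors used cutadapt, FastQC, STAR, featureCounts and DESeq2; no version, genome build, annotation or strand setting was given in the sources used here. Read counts in the deposited table are per gene and not normalized, with a cow letter, day and cycle in each column name; 17715 of 38001 rows have no symbol and were kept in the fits. In the RefSeq gene table of ARS-UCD2.0, the coordinates of PTCH1, GLI3 and HHIP overlap another gene; whether reads were shared in the counting is unknown. Of counts from 1 to 20, 78.3% were even, so a read pair may often have counted as 2 and low counts are less precise than they look.

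Genes were filtered with filterByExpr and fitted with edgeR 4.0.16 (R 4.3.3; TMM factors 0.881 to 1.16, quasi-likelihood F test, robust, all 18 libraries, 1 mean per group), with Benjamini-Hochberg adjustment over 19638 genes. Log2 CPM used a prior count of 2. Fits were tested on simulated data. Alternatives were DESeq2 1.42.0, its size factors, limma 3.58.1 voom with the cow as a random effect, the cow as a block, no filter, only the groups compared, leaving out each library and, chosen after seeing the data, leaving out animal C. The cow letter pairs the samples by the labels. Of 18 pairs of samples of a cow, 12 had deviations that correlated above 0.1. The correlations ran from 0.393 to 0.718 in animals A to C and from -0.0712 to 0.357 in animals D to F. In animal F they were -0.00344, 0.0327 and -0.0712, so the counts bear out the pairing less in the P4 arm. No 2 of the libraries were identical. The genes and gene lists were chosen with earlier results of these data known. Named besides the 9 genes are up to 4 genes per list and comparison that passed, by size of change, and the 3 genes most correlated with IHH, PTCH1, NR2F2 and HAND2; list genes named without passing were chosen after their values were seen. No sequences are printed.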

Additional observations from a re-analysis of the deposited data

Results flagged for a closer look

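Within each condition the 6 cows were pooled over the arms and the gap between the end value and its neighbour was set against the whole range of log2 CPM (Dixon's test). Chance flags about 1 in 20 such groups. GLI3 on control day 4 was far below the other cows in animal B, at 0.311 CPM. HHIP on treated day 7 had reads in animal D, at 0.176 CPM from 5 reads, and none in the other 5 cows; with 5 values at 0 the gap is the whole range by construction, so this says nothing beyond the reads. NR2F2 on control day 4 was far above the other cows in animal C, at 77.2 CPM.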

How the results depend on the processing

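In no alternative did a called gene of the set change sign. Over both arms, day 7 against day 4, 1 of the 8 genes was called lower and 0 higher; 2 were called lower with DESeq2, with the cow as a replicate block, with limma voom and without animal C, and 0 to 2 when 1 library was left out. With the block 1 gene was also called higher, PTCH1, over both arms and within the 17-OHPC/P4 arm. In the P4 arm 1 was called lower, against 2 with DESeq2, the block, limma voom, only the groups compared and without animal C, and 0 to 1 without a library. The second gene was GLI3. The block, paired by cow, changed no other call of the 8 genes. Each gene in each comparison and alternative was also counted as 1 case. In 134 cases a value that was not called changed sign. Of the other cases 1137 kept their call, 13 gained one and 12 lost one.

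Counts of all genes called (higher and lower) moved more. For day 7 against day 4 over both arms they were 1232 and 841, against 2043 and 1482 with DESeq2 and 2024 and 1947 with limma voom; the lower count was 455 without a filter, 1437 with the block and 543 with only the groups compared. For the 17-OHPC/P4 arm they were 8 and 0, against 319 and 90 with DESeq2, 105 and 3 with the block, 57 and 2 with limma voom, and 0 higher with only the groups compared or without animal C. For the P4 arm they were 912 and 786, against 1899 and 1502 with DESeq2, 1535 and 1440 with the block and 1694 and 1912 with limma voom; 411 were lower without a filter. Between the arms on control day 4 they were 256 and 286, against 1245 and 1062 with DESeq2, 90 and 97 without a filter, 5 and 4 without animal C and 0 and 0 with only the groups compared. On control day 7 DESeq2 called 131 and 234 (edgeR 0 and 1), on treated day 7 it called 114 and 101 (edgeR 0 and 2), and for the difference in day change 49 and 39 (edgeR 0 and 0, limma voom 3 and 1). For treated against control day 7 DESeq2 called at most 2 genes in a direction. The cause of these shifts was not tested.

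With 3 cows a group and few reads, the intervals of GLI1 and GLI2 held changes of over 2-fold, and HHIP could not be tested.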
